A study of Mus musculus with 7 samples.

Results

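The miR-200 family and miR-203 are microRNAs (miRNAs, short RNAs that lower the output of messenger RNAs carrying matching sites) that are best known from epithelial cells. The account covers 5 names among the 1881 miRNA names on the array: mmu-miR-200a-3p, mmu-miR-200b-3p, mmu-miR-200c-3p, mmu-miR-141-3p and mmu-miR-203-3p, written below without the mouse prefix. All 5 were found by name on the array and in the authors' value table. The choice was made with earlier results of these data known. They were measured on 7 arrays of CD4+ T cells isolated by positive magnetic selection from draining lymph nodes of mice. A myocarditis model (EAM) gave 4 arrays and a myocardial infarction model (LAD) gave 3. By the sample labels, EAM cells were taken on day 6 and LAD cells on day 3 of the model; the series' own text has these days the other way round. No strain, age, sex or further treatment is named in the labels used here, which also do not say whether the arrays of a group come from separate mice, so the p values measure the spread between these arrays only. No cells of healthy mice were analysed here, and the effects of model, day and column on the slide cannot be told apart, since each column of the slide held 1 group.

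Members of the miR-200 family hold epithelial cells in their epithelial state by repressing the transcription factors ZEB1 and ZEB2, which shut down E-cadherin. Their loss accompanies the epithelial-to-mesenchymal transition. miR-203 is abundant in skin keratinocytes, where it restrains the stem cell factor p63 and favours differentiation. None of the 5 is known as an abundant miRNA of mature T cells. An miRNA finds its targets mainly through its seed, bases 2 to 8 from the 5′ end, so miRNAs with the same seed share many targets.

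The mature sequences show how the 5 names fall into seed groups (RefSeq, GRCm38.p6, 5′ to 3′, seed in capitals). miR-429-3p is added because it completes the family.
miR-200a-3p: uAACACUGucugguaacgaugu
miR-141-3p: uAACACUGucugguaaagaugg
miR-200b-3p: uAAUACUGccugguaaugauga
miR-200c-3p: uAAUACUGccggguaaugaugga
miR-429-3p: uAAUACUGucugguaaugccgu
miR-203-3p: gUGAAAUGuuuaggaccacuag
miR-200a-3p and miR-141-3p share 1 seed, and miR-200b-3p, miR-200c-3p and miR-429-3p share another. No other mature mouse miRNA among the 1679 in the RefSeq table carries either of these seeds, and none but miR-203-3p carries that of miR-203-3p. Over the first 22 bases, miR-200a-3p and miR-141-3p differ at 2 positions, and so do miR-200b-3p and miR-200c-3p.

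The family comes from 2 gene clusters, so miRNAs with the same seed are made at different sites. In GRCm38.p6, mature miR-200a-3p lies at chr4:156054911-156054932 and miR-200b-3p at chr4:156055685-156055706, both on the minus strand, and their hairpins and that of miR-429 lie within 1846 bases, inside the annotated span of the gene Gm13648. miR-200c-3p lies at chr6:124718324-124718346 and miR-141-3p at chr6:124717917-124717938, on the minus strand, with both hairpins within 477 bases and in no other annotated gene; the nearest protein-coding gene is Phb2. miR-203-3p lies at chr12:112130927-112130948 on the plus strand, and its hairpin overlaps only Gm51289, the gene of the opposite-strand miR-203b.

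Each name is measured by 2 probes of 15 to 18 bases, with 15 spots each, which pair with the 3′ side of the miRNA from base 5 to 9 onward, so that the seed is read in part or not at all. The probes are printed to show how few bases separate relatives (5′ to 3′, DNA, longer probe of each name except for miR-200a-3p, where the shorter is as long as that of miR-141-3p); capitals mark the bases that do not pair with the closest relative at the same offset.
Probe of miR-141-3p against miR-200a-3p: CcatcTttaccagacag
Probe of miR-200a-3p against miR-141-3p: AcatcGttaccagacag
Probe of miR-200b-3p against miR-200c-3p: TcatcattaccAggcag
Probe of miR-200c-3p against miR-200b-3p: TCcatcattaccCggc
These probes differ from the relative named beside them at 2 or 3 bases. Signal of one relative on the probes of another was not tested, so values within a pair may not be separate measurements.

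The LAD arrays were dimmer as a whole. Between 445 and 471 miRNAs were detected per EAM array and between 311 and 380 per LAD array. The median total gene signal (the scanner software's sum of background-subtracted signal per miRNA, in intensity units) of the 251 miRNAs detected on all 7 arrays was 48.1 to 57.4 on the EAM arrays and 12.4, 21.2 and 10.7 on LAD arrays 1 to 3, a 3.83-fold step down from EAM (exact permutation test, two-sided, p = 0.0571, the lowest possible with 35 splits). Negative-control spots, which match no mouse RNA, had a median of 48.1 ± 2.36 units over the 4 EAM arrays and 48.6 ± 1.24 units over the 3 LAD arrays (SD; p = 0.743 by the same exact permutation test). The part of this brightness step in the differences below was not tested.

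All 5 miRNAs were detected on every EAM array and on at most 1 LAD array. miR-200a-3p and miR-203-3p were detected on 0 of 3 LAD arrays, and miR-200b-3p, miR-200c-3p and miR-141-3p on LAD array 2 only, the brightest of the 3. Detection here is the scanner software's mark per miRNA. Of the 410 miRNAs detected on all 4 EAM arrays, 49 (12.0%) were detected on no LAD array and 77 on 1, which was LAD array 2 for 75 of them, while 251 (61.2%) were detected on all 3. Because the cells were measured in bulk, fewer cells that make these miRNAs and less of them per cell cannot be told apart.

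In EAM, the unscaled signals of all 5 lay below the median of the detected miRNAs on arrays 1 to 3, and on array 4 those of miR-200a-3p and miR-203-3p lay above it. The total gene signal of miR-200a-3p was 21.1, 19.4, 16.5 and 21.1 on EAM arrays 1 to 4, and that of miR-203-3p was 18.9, 19.9, 17.0 and 23.7. miR-141-3p had 12.4, 11.5, 9.43 and 17.0, miR-200b-3p 9.63, 9.69, 8.35 and 15.3, and miR-200c-3p 5.24, 6.41, 5.44 and 11.9. That median was 21.7, 20.4, 17.1 and 17.6 on EAM arrays 1 to 4. On LAD array 2 the signal was 4.84 for miR-141-3p, 2.78 for miR-200b-3p and 2.73 for miR-200c-3p. The other LAD values are the software's fill-in for no detection, so no fold is taken from this measure. The weakest miRNA marked as detected had 1.19 to 1.31 units on the LAD arrays and 1.45 to 1.89 on the EAM arrays. Summed, the 5 made up 0.0275% to 0.0347% of the total gene signal of all detected miRNAs on the EAM arrays, 0.0122% on LAD array 2 and 0 on LAD arrays 1 and 3. Probes differ in brightness, so these are shares of signal and not of molecules, and the 5 names are not ranked against each other.

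**Figure D1:**
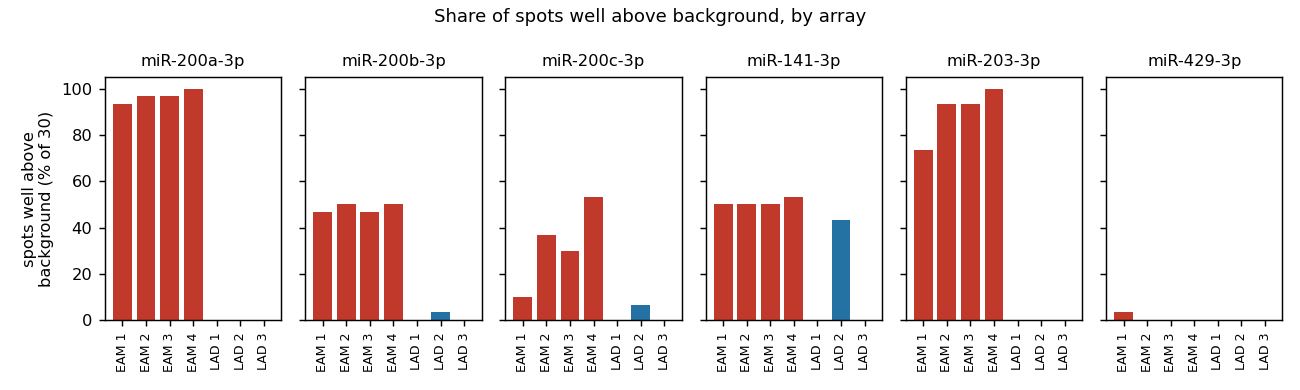
Share of the 30 spots of each miRNA that the scanner software marked as well above background, in percent (bars; EAM arrays red, LAD arrays blue; 1 bar per array). miR-200a-3p and miR-203-3p stand at 73.3% to 100% on the EAM arrays and at 0 on the LAD arrays, and miR-141-3p reaches 43.3% on LAD array 2.

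By spot, miR-200a-3p and miR-203-3p were well above background on most spots in EAM and on 0 in LAD. No share over all miRNAs is given for this measure, and the LAD arrays were dimmer as a whole. On EAM arrays 1 to 4, 28, 29, 29 and 30 of the 30 spots of miR-200a-3p were well above background, and 22, 28, 28 and 30 of those of miR-203-3p. On the LAD arrays it was 0 spots for both. For miR-200b-3p it was 14, 15, 14 and 15 spots in EAM and 0, 1 and 0 on LAD arrays 1 to 3. For miR-141-3p it was 15, 15, 15 and 16 in EAM and 0, 13 and 0 in LAD. For miR-200c-3p it was 3, 11, 9 and 16 in EAM and 0, 2 and 0 in LAD. A stricter rule, over 15 of the 30 spots well above background, would leave miR-200a-3p and miR-203-3p on the same 4 arrays, miR-141-3p and miR-200c-3p on EAM array 4 alone, and miR-200b-3p on none.

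The counts near 15 of 30 came from 1 of the 2 probes. In EAM, 60 of 60 spots of the longer miR-141-3p probe (17 bases) were well above background, and 1 of 60 of the shorter (16 bases). Their background-subtracted spot signals in EAM were 44.0 ± 7.30 and 10.1 ± 1.21 (intensity units, SD, n = 4). For miR-200b-3p the longer probe had 58 of 60 such spots and the shorter 0 of 60. For miR-200c-3p it was 38 of 60 against 1 of 60. For miR-200a-3p both probes were mostly above background, with 60 of 60 spots for the 18-base probe and 56 of 60 for the 17-base probe, and for miR-203-3p it was 60 and 48 of 60. The detection of miR-141-3p on LAD array 2 rested on the longer probe too, with 13 of its 15 spots.

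**Figure D2:**
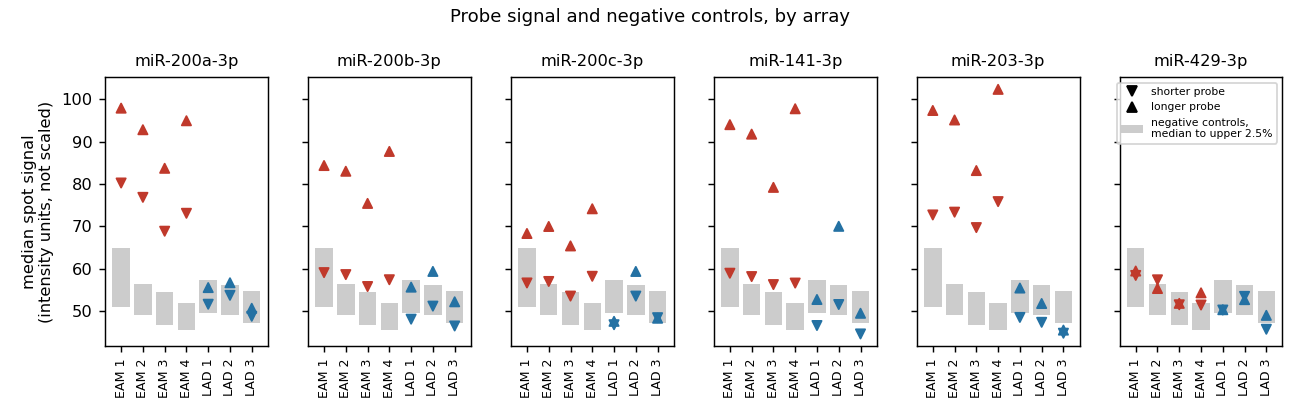
Median spot signal of the shorter (triangle down) and longer (triangle up) probe of each miRNA on each array, in unscaled intensity units; grey bars run from the median to the level that 2.5% of the 1000 negative-control spots of that array exceed. The longer probes of the 5 miRNAs lie above the grey bars on all 4 EAM arrays (red), and on the LAD arrays (blue) those of miR-200b-3p, miR-200c-3p and miR-141-3p, and narrowly miR-200a-3p, do so on LAD array 2 alone.

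The upper limit of the negative controls is the level that 2.5% of their spots exceed. The longer probe of every one of the 5 lay above it on all 4 EAM arrays. On LAD arrays 1 and 3 none of the 10 probes did. On LAD array 2, the longer probes of miR-141-3p, miR-200b-3p, miR-200c-3p and miR-200a-3p did, the last at 56.7 units against a limit of 56.1, and neither probe of miR-203-3p did. No share over all probes is given for this limit, and the LAD arrays were dimmer as a whole. These counts rest on the same spots as the detection marks, so they are a description and no support. The median spot signal of the longer miR-203-3p probe was 83.2 to 102 units in EAM and 45.5 to 55.5 in LAD, and that of the longer miR-200a-3p probe was 83.7 to 98.0 and 50.7 to 56.7.

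The design sets T cells from the myocarditis model against T cells from the infarction model. Values are background-corrected, quantile-normalized log2 signals, and differences are EAM minus LAD. miR-203-3p had 5.33, 5.52, 5.58 and 5.76 on EAM arrays 1 to 4 and 4.65, 4.43 and 4.25 on LAD arrays 1 to 3. The 2 groups did not overlap. The means were 5.54 ± 0.18 (SD, n = 4) and 4.44 ± 0.20 (SD, n = 3), a difference of 1.10 (log2, standard error 0.15; limma adjusted p = 0.00916). As no LAD array detected it, the fold is given as at least 2.09-fold on these normalized values, for which a LAD array counts with whichever is higher, its measured value or its weakest detected miRNA. It is no bound over other background corrections, under which the difference was as low as 0.43 (log2, local background and an offset of 50).

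miR-200a-3p, from the chromosome 4 cluster, had 5.42, 5.54, 5.57 and 5.66 in EAM and 4.79, 4.84 and 4.67 in LAD, again without overlap. Its means were 5.55 ± 0.10 and 4.77 ± 0.09, a difference of 0.78 (standard error 0.12, limma adjusted p = 0.00938). The same rule gives 1.72-fold, which is here the fitted fold itself, as the measured value was the higher on each LAD array. It has the same limit (0.32 with local background and an offset of 50). miR-200b-3p, from the same cluster and of the other seed, had 5.01, 5.16, 5.20 and 5.34 in EAM and 4.64, 4.82 and 4.65 in LAD. Its groups did not overlap either, with means of 5.17 ± 0.14 and 4.70 ± 0.10 and a difference of 0.47 (log2, standard error 0.13; limma adjusted p = 0.0210). Only 1 of the 3 LAD arrays detected it, and likewise miR-141-3p and miR-200c-3p, so no fold is given for these 3.

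In the chromosome 6 pair, LAD array 2 reached the EAM values on these normalized signals. miR-141-3p had 5.09, 5.23, 5.26 and 5.41 in EAM and 4.46, 5.10 and 4.42 in LAD, so that LAD array 2 reached the lowest EAM value. Its difference was 0.59 (log2, standard error 0.19; limma adjusted p = 0.0340). miR-200c-3p had 4.77, 4.95, 4.97 and 5.19 in EAM and 4.24, 4.91 and 4.54 in LAD, with LAD array 2 inside the EAM range. Its difference of 0.40 (95% interval -0.03 to 0.84) did not pass (limma adjusted p = 0.0884). This overlap depended on the processing. With median centring and without scaling, LAD array 2 lay below every EAM array for both miRNAs. For miR-141-3p it also did so with the background model fitted without the control spots. On LAD array 2, miR-141-3p was detected while miR-200a-3p, the name with the same seed, was not.

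**Figure D3:**
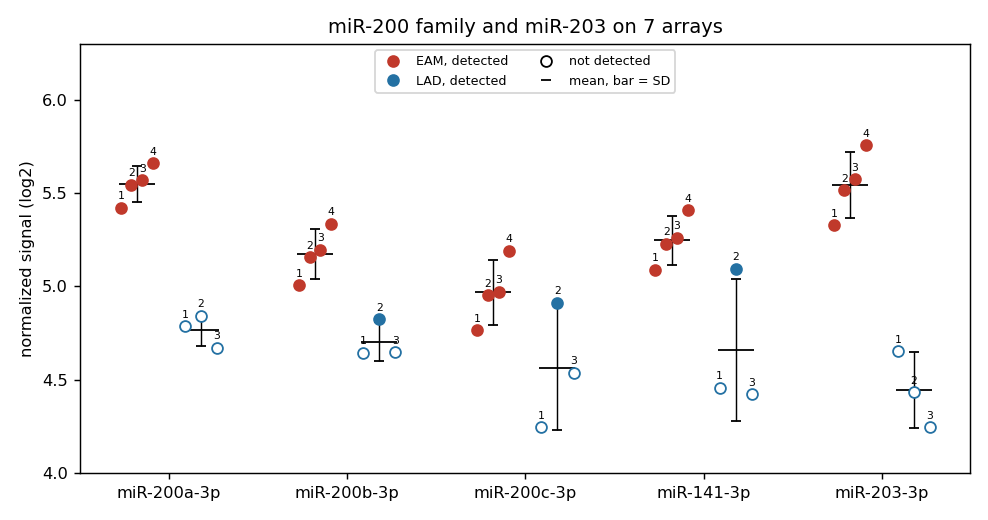
Normalized signal (log2) of each miRNA on the 4 EAM arrays (red) and 3 LAD arrays (blue); filled circles mark arrays that detected it, open circles arrays that did not, small digits give the array's number, and black bars the mean and SD. For miR-200a-3p, miR-200b-3p and miR-203-3p all EAM points lie above all LAD points, and for miR-200c-3p and miR-141-3p LAD array 2 reaches the EAM points.

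Of the 5, 4 passed, all as higher in EAM. Over all 423 miRNAs tested, 59.8% passed, 36.2% as higher in EAM and 23.6% as higher in LAD. For 3 of the 5 every EAM array lay above every LAD array, as for 34.0% of those tested (22.2% the reverse, 56.3% either way). The 5 entered the test through their detection on all EAM arrays, and none was detected on all LAD arrays, which favours a difference toward EAM, so these counts are a description and no support. The median difference of the 5 was 0.59, beside 0.31 over all tested miRNAs. The calls split into 153 toward EAM and 100 toward LAD. This split moved with the scaling, to 91 and 109 when the 75th percentile of fully detected probes set the scale, 223 and 84 when that of all probes did, 263 and 55 with median centring and 299 and 2 without scaling.

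Each difference can be read against the median of the tested miRNAs, which moved with the scaling and the background correction. It was 0.12 with the 75th percentile of detected probes, 1.14 with that of all probes, 0.69 with median centring and 1.17 without scaling. With local background and an offset of 50 it was 0.15, and here it was 0.31. Relative to that median, miR-203-3p was higher in EAM by 0.79 and miR-200a-3p by 0.47 (log2). Both stayed above it in all 10 sets of values tried, with 0.28 for miR-203-3p and 0.18 for miR-200a-3p as the lowest (local background and an offset of 50). These sets include total gene signal, where every LAD value of both is the software's fill-in. Entry into the test through detection on all EAM arrays favours a place above the median, so this is a description and no support. miR-141-3p was 0.28 above the median here and 0.02 above it with median centring and without scaling. miR-200b-3p was 0.16 above it here and fell below it by 0.12 with median centring and without scaling. miR-200c-3p was 0.09 above it, and below it by 0.22 in those 2 sets and by 0.03 in the authors' table. All 5 differences themselves were toward EAM in every set.

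**Figure D4:**
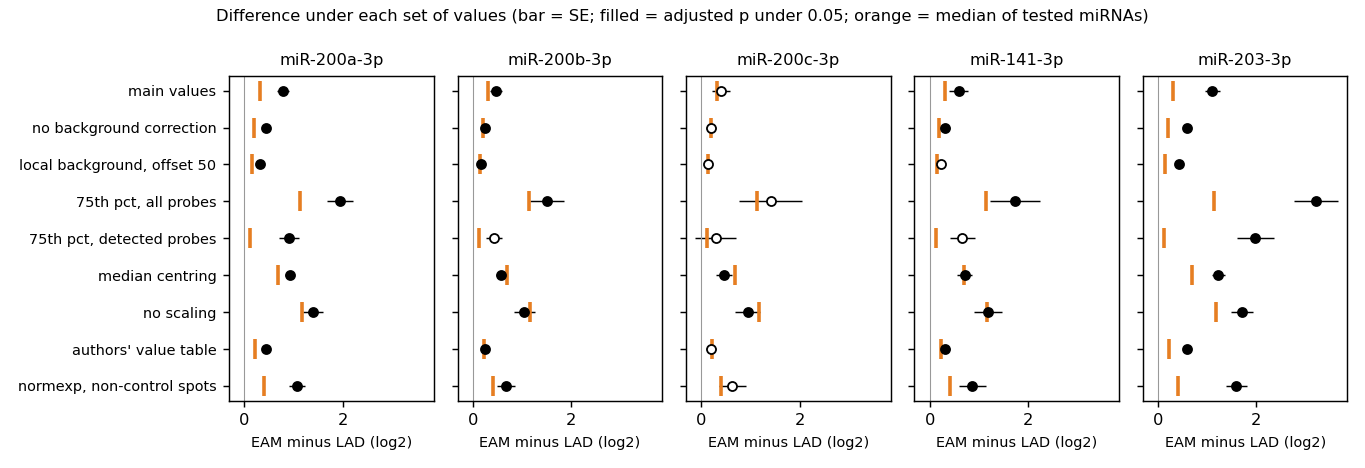
Difference EAM minus LAD (log2) of each miRNA in 9 sets of values that differ in background correction, scaling or source; points with bars give the difference and its standard error, filled where the limma adjusted p was under 0.05, and orange ticks the median difference of all tested miRNAs in that set. miR-200a-3p and miR-203-3p are filled and to the right of the tick in every row, and miR-200b-3p and miR-200c-3p are left of it with median centring and without scaling.

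The size of the differences depended on the background correction and on the scaling. In the authors' value table miR-203-3p had 6.10, 6.21, 6.25 and 6.35 in EAM and 5.74, 5.64 and 5.55 in LAD, a difference of 0.58 against 1.10 here. With the background model fitted without the control spots it was 1.59, and with the all-probe 75th percentile as scale it was 3.22, with 1 array at the floor. For miR-200a-3p these values were 0.44, 1.06 and 1.95. The calls of miR-200b-3p and miR-141-3p also hung on single arrays. That of miR-141-3p ended without any one array other than LAD array 2 (adjusted p = 0.0579 to 0.106) and was kept without LAD array 2 (difference 0.83, adjusted p = 0.000437); that of miR-200b-3p ended without EAM array 2, 3 or 4 or LAD array 1 or 3 (0.0516 to 0.0686); and miR-200c-3p passed without LAD array 2 (difference 0.59, adjusted p = 0.00731). Without LAD array 2, 379 of the 458 miRNAs then tested passed, beside 253 of 423 in the full set. Fewer than 253 passed without each other array, the lowest being 79 of 428 without EAM array 4. The calls of miR-200a-3p and miR-203-3p were kept without each array (adjusted p up to 0.0441). An unmoderated test with unequal variances called 0 miRNAs after adjustment and 120 at an unadjusted p under 0.05, where limma called 253 after adjustment (adjusted p = 0.0598 for miR-200a-3p and 0.0929 for miR-203-3p).

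Nothing else from these hairpins was detected. miR-429-3p, the remaining family member, whose hairpin lies beside those of miR-200a and miR-200b, was detected on 0 of 7 arrays, with 1 of its 30 spots well above background on EAM array 1 and 0 elsewhere. Its background-subtracted signal on the longer probe averaged 8.05 ± 1.32 units over the EAM arrays and 3.72 ± 0.58 over the LAD arrays (SD, n = 4 and 3). The 6 other products on the array, which are miR-429-5p and the passenger strands miR-200a-5p, miR-200b-5p, miR-200c-5p, miR-141-5p and miR-203-5p (the strands usually discarded when the hairpin is cut), were detected on 0 of 7 arrays as well.

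Other miRNAs of epithelial tissues were detected in part. On the array as a whole, 553 of 1881 names were detected on at least 1 array, and of a list of 10 epithelial miRNAs 4 were. The 6 detected on no array included miR-205-5p, a keratinocyte and gland miRNA, miR-375-3p, a miRNA of endocrine and gut epithelium, and miR-182-5p and miR-183-5p, which are made from the same cluster as miR-96-5p. The summed total gene signal of the list was 57.6 to 83.5 on the EAM arrays and 0 to 34.6 on the LAD arrays, and came from miR-96-5p, miR-192-5p, miR-194-5p and miR-31-5p. miR-192-5p and miR-194-5p, which are abundant in gut, liver and kidney and made from shared clusters, were detected on 4 of 4 EAM arrays and on 2 and 1 of 3 LAD arrays. miR-192-5p had 6.02 ± 0.14 in EAM and 5.51 ± 0.62 in LAD (limma adjusted p = 0.131), miR-194-5p 5.57 ± 0.15 and 4.91 ± 0.59 (0.0598), and miR-96-5p 5.34 ± 0.15 and 4.94 ± 0.33 (0.0846). None of these 3 passed.

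Markers of other tissues were looked at beside the 5. All 7 miRNAs on the list of heart and skeletal muscle were detected on no array, as were all 5 on the list of fibroblasts and smooth muscle, the liver miRNA miR-122-5p, and both miRNAs of the nervous system. Of the endothelial pair, miR-126a-3p was detected on 3 of 4 EAM and 2 of 3 LAD arrays and miR-126a-5p on none. The myeloid miR-223-3p was detected on all 7 arrays and was higher in LAD (6.59 ± 0.16 in EAM, 8.23 ± 0.83 in LAD; limma adjusted p = 0.0127), the opposite direction to the 5. That call hung on the scaling. The difference was -1.64 here, -0.84 with the all-probe 75th percentile as scale (limma adjusted p = 0.0609), -0.50 with median centring (0.0823) and -0.02 without scaling (0.965). The call was kept in the other sets of values tried. Among these were the 75th percentile of detected probes (-1.89, 0.00798) and the authors' table (-1.14, 0.0127). The unscaled total gene signal was 58.2 to 67.3 in EAM and 70.4, 75.1 and 24.7 on LAD arrays 1 to 3, so that the groups overlapped. The red-cell miR-451a was detected on all 7 arrays, at 6.71 ± 0.27 in EAM and 6.84 ± 0.83 in LAD, and did not pass (limma adjusted p = 0.740); without scaling it was higher in EAM by 1.18 (0.0150). All 7 leukocyte and T cell miRNAs listed, among them miR-142-3p, miR-142-5p and miR-146a-5p, were detected on all arrays. Their summed total gene signal was 41837 to 57893 in EAM and 2568 to 12482 in LAD. Of the 7, 4 passed as higher in EAM, 1 passed as higher in LAD and 2 did not pass. The 1 higher in LAD was miR-181a-5p (difference -3.18, limma adjusted p = 0.0118). Its unscaled signal was 139 to 214 in EAM and 77.7, 1405 and 191 on LAD arrays 1 to 3. Whether the 5 came from T cells or from other cells in the selected fraction was not tested.

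By Pearson's r of normalized signal over the 7 arrays, given as a description, the tested miRNAs most like miR-203-3p were miR-3535 (0.991), let-7f-5p (0.988) and miR-200a-3p (0.988). Those most like miR-200a-3p were miR-3962 (0.995), miR-342-5p (0.993) and miR-1839-5p (0.991), and those most like miR-200b-3p were miR-7b-5p (0.994), miR-101b-3p (0.992) and miR-28a-3p (0.984). For miR-141-3p they were miR-423-5p (0.991), miR-669a-5p (0.990) and miR-669b-5p (0.990), and for miR-200c-3p miR-669f-5p (0.945), miR-7219-5p (0.944) and miR-6975-5p (0.941). Within these lists of 3, the only pairing among the 5 was that of miR-203-3p with miR-200a-3p, which is made on another chromosome. Other pairs of the 5 were alike too. For partners in a cluster, r was 0.969 (miR-200a-3p and miR-200b-3p) and 0.938 (miR-200c-3p and miR-141-3p). The lowest r was 0.682, for miR-200c-3p and miR-203-3p. The arrays share the step in brightness between the groups, and a likeness over 7 arrays carries that step.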

How the data were processed

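miRNA was measured on 7 one-colour Agilent arrays, 4 of EAM and 3 of LAD cells, with 100 ng of RNA each per the labels. The deposited scanner files hold intensity per spot, unscaled between arrays, and other columns that are marks of 0 or 1 for detection and quality; per the file headers they were made with Agilent Feature Extraction 10.7.3.1 on 1 slide. The deposited table of authors' values is on a log2 scale; per the submitters' processing notes RMA was used, with no role given. Its values were within 0.1 of quantile-normalized signal without background correction for 97.9% of entries.

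Mean spot signal of all 58594 spots was corrected with the normexp model (limma 3.58.1, R 4.3.3), control spots were left out, and the 56430 others were quantile normalized. The package data.table (1.17.8) was used for reading and grouping. Values are the median over the spots of a probe, outlier spots left out, and a median polish over probes. Fits used the 423 miRNAs that all EAM or all LAD arrays detected, and were made with limma (Benjamini-Hochberg, threshold 0.05), which was checked on simulated data. For 75th-percentile values, scaled signals were raised to a common floor. It stands for 1 unit on the array with the lowest 75th percentile and for more on the others. Alternatives were other background, scaling, summary, filter and variance settings, the authors' table and leaving out each array, with values normalized anew. Precision is limited by the number of arrays. The members, lists and alternatives were chosen with earlier results of these data known, and the normexp fit without control spots was added after seeing the files. Named are the 5, other products of their hairpins and family, up to 3 per marker list (detected on the most arrays, then by name), and the 3 tested miRNAs most like each by Pearson's r. Further list members are named for counts. miR-203b was not analysed here. All 5 were found in the RefSeq miRNA table.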

Additional observations from a re-analysis of the deposited data

How the results depend on the processing

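All 5 differences stayed toward EAM in all 21 alternatives. The other detection filters and the test with unequal variances leave the differences themselves unchanged, so their direction there was fixed in advance. The adjusted p was under 0.05 in 19 of 21 for miR-200a-3p and for miR-203-3p, 12 for miR-200b-3p, 9 for miR-141-3p and 4 for miR-200c-3p. For miR-200a-3p and miR-203-3p the 19 include total gene signal, where every LAD value is fill-in, so that pass is no support. The cause of the changes below was not tested. With local background and an offset of 50, miR-141-3p no longer passed (0.23). Scaled to the 75th percentile of detected probes, miR-200b-3p (0.44) and miR-141-3p (0.66) did not pass, and with total gene signal neither did (4.23 and 4.37, against fill-in values). Without a detection filter miR-141-3p did not pass (0.59, adjusted p = 0.0517). miR-200c-3p passed with median centring (0.46), without scaling (0.94) and with array weights (0.73). With unequal variances none of the 5 passed (miR-200a-3p 0.78, miR-200b-3p 0.47, miR-141-3p 0.59, miR-203-3p 1.10). Over all miRNAs, 166 passed with total gene signal, 445 of 1881 without a detection filter, 0 with unequal variances and 0 with the replicate block (120 and 180 at an unadjusted p under 0.05), against 253. Leaving out 1 array gave 79 to 379 calls, and differences of 0.74 to 0.84 for miR-200a-3p, 0.41 to 0.54 for miR-200b-3p, 0.25 to 0.59 for miR-200c-3p, 0.48 to 0.83 for miR-141-3p and 1.02 to 1.23 for miR-203-3p. The replicate numbers were taken only to name the arrays. Deviations of same-numbered arrays correlated at 0.20, -0.16 and -0.19, and those of unlike-numbered arrays at -0.39 to 0.34. With so few arrays these values cannot decide whether the numbers mark pairs. With the replicate block the differences were 0.75 (miR-200a-3p), 0.42 (miR-200b-3p), 0.54 (miR-141-3p) and 1.03 (miR-203-3p), and none passed. The signals lie close to background, which limits every fold.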
